A study of Mus musculus with 10 samples.

Results

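The genes described here are Batf and 9 genes whose proteins pair with BATF, compete with it or share its binding sites. They are the BATF family members Batf and Batf3, the interferon regulatory factors Irf4 and Irf8, the JUN family members Jun, Junb and Jund, and the FOS family members Fos, Fosb and Fosl2. They were chosen by name, and their transcripts' estimated read counts were summed per gene (and kept per transcript for Batf), which gave 10 of the 34932 genes in the deposited tables. All 10 passed the filter on low counts, so that no member is missing from the test of MIT-BATF against MIT-Empty.

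The study asked how CD8+ T cells given extra BATF differ from control cells inside a tumor. Donor cells of both groups were splenocytes of Pmel Thy1.2/Thy1.2 mice, whose T cell receptor recognizes the melanoma antigen gp100. They were activated with gp100 peptide and IL-2 for 24 hours and transduced with the retroviral vector MSCV-IRES-Thy1.1 (MIT), either with a mouse BATF reading frame (MIT-BATF) or without it (MIT-Empty). Both were then grown in IL-2, IL-7 and IL-15, and Thy1.1+ cells were injected into Ly5.1 mice with B16-F10 melanoma. On day 7 after transfer 2000 live Thy1.1+ Pmel cells per mouse were sorted from the tumor. By the study's methods 1 library is thus 1 mouse, with 5 mice per group. The mice were of both sexes and aged 8 to 12 weeks, and the hosts kept their own immune cells. All values are bulk RNA levels, in which fewer cells of a type and less RNA per cell cannot be told apart.

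BATF and BATF3 are small basic leucine zipper proteins. They bind DNA as partners of JUN proteins, in place of FOS, and lack the transactivation domain that c-Fos and c-Jun carry. In T cells BATF-JUN pairs bind together with IRF4 or IRF8 at composite AP-1 and IRF elements, and this assembly is known for its part in effector differentiation and in exhaustion. T cell receptor signals induce Batf, Irf4 and the FOS and JUN genes, the last of these within minutes to hours.

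Total counts were 10702908 to 34102346 per library in MIT-BATF and 6534648 to 21355922 in MIT-Empty. The counts are nested: in both groups those of replicate 4 lie gene by gene within replicate 2, and those of replicate 5 within replicate 3. A contained library exceeded the library that holds it in 0.286% to 0.661% of genes with at least 5 counts, against at least 3.54% for every other pair of libraries. If these are the same reads, p-values over the deposited counts are too small. Values of the 10 genes and of the related genes that passed the test are therefore also given with shared counts taken once, for which replicates 4 and 5 were subtracted from replicates 2 and 3. MIT-BATF replicate 1 stood apart: mitochondrial genes held 33.2% of its counts, whereas the rest of its group had 11.5% to 15.1% and MIT-Empty had 15.5% to 23.1%. Markers of CD8 T cells had a summed level of 2917.9 to 5149.4 CPM (library-scaled counts, with TMM factors) in MIT-BATF and 3449.3 to 5623.2 CPM in MIT-Empty, and 0 of 7 passed the test, also at an unadjusted p under 0.05 and also by DESeq2. Melanoma markers were lower in MIT-BATF for 6 of 6 tested (2 of 5 with shared counts taken once), with summed levels of 14.4 to 29.5 CPM against 39.7 to 1737.9 CPM, highest in MIT-Empty replicate 4. Macrophage and monocyte markers were lower for 4 of 11 tested (1 of 10 with shared counts taken once), with 25.0 to 82.6 CPM against 43.6 to 290.0 CPM. DESeq2 called 8 of 8 melanoma markers lower with the deposited counts and 0 with shared counts taken once. Of 12 macrophage and monocyte markers it called 6 lower with either.

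None of the 10 genes, Batf included, passed the test of MIT-BATF against MIT-Empty. That test called 4.58% of the 11781 genes tested at an adjusted p under 0.05 (edgeR's quasi-likelihood test, Benjamini-Hochberg adjustment over all genes tested, the meaning of adjusted p throughout), 2.16% higher and 2.43% lower in MIT-BATF. At an unadjusted p under 0.05 only Junb of the 10 was counted, against 18.1% of all genes. With shared counts taken once 0 of the 10 were called, against 1.26% of 11131 genes (0.575% higher and 0.683% lower in MIT-BATF), and again only Junb had an unadjusted p under 0.05, against 10.6%. DESeq2 on the deposited counts called 0 as well and counted Junb and Jund at an unadjusted p under 0.05. Over all genes DESeq2 called more than edgeR, both with the deposited counts and with shared counts taken once. The shares of all genes called, or with an unadjusted p under 0.05, are edgeR's throughout. DESeq2 counts, for the 10 genes and for every list, therefore have no background share beside them and should not be set against those of edgeR. The median log2 fold change of the 10 was 0.00, beside 0.01 for all genes tested, with 5 genes above and 5 below 0.

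**Figure D1:**
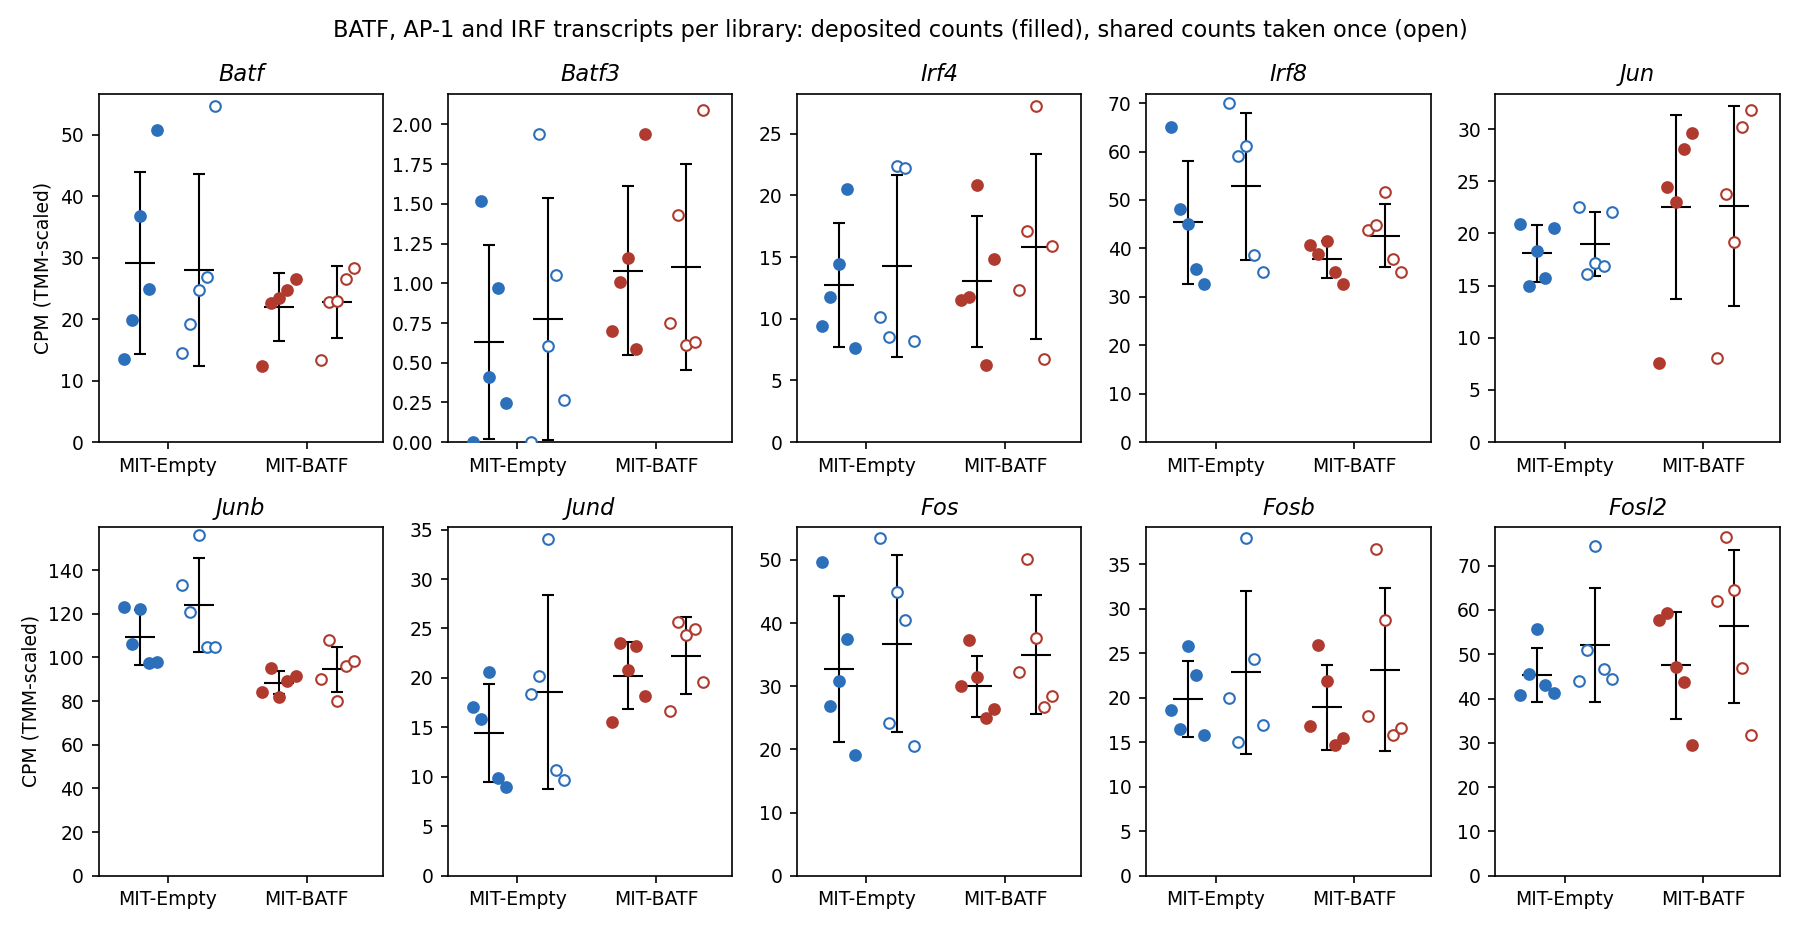
CPM (vertical axis) of each of the 10 genes in the 5 MIT-Empty and 5 MIT-BATF libraries, as filled points for the deposited counts and open points for shared counts taken once, with the mean and SD of each group in black. Only the filled points of Junb do not overlap between the groups, and the Batf points of MIT-Empty reach 50.8 CPM while those of MIT-BATF end at 26.5 CPM.

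Batf lies at chr12:85686669-85709087 on the plus strand of GRCm38 (mm10). The first 300 of its 378 coding bases are shown because the vector's insert is labelled as the mouse BATF reading frame. The endogenous gene is counted in part by these bases. They were read 5′ to 3′ from exons of transcript Batf-201 within chr12:85686911-85708674, and the 81 bases in capitals (chr12:85689292-85689372) lie in the middle exon, encode part of the DNA-contacting basic region and are the only coding bases shared with the other annotated transcript, Batf-202.
Batf coding sequence, start: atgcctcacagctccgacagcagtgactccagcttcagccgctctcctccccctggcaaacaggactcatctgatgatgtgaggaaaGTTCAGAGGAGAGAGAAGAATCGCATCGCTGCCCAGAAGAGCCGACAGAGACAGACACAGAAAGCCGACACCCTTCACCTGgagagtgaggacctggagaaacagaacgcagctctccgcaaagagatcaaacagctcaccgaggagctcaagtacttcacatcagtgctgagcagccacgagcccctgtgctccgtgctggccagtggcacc
The 378 coding bases are 39.6% of the 955-base transcript. None of the 112092 entries of the deposited tables is a vector, and the bases of the vector's own reading frame were not known, which leaves it uncertain whether vector transcripts were counted as Batf.

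Batf had 141, 557, 1016, 253 and 491 counts in MIT-BATF replicates 1 to 5 and 110, 392, 898, 154 and 612 in MIT-Empty replicates 1 to 5. Scaled to library size these were 12.4, 22.6, 23.5, 24.8 and 26.5 CPM in MIT-BATF, and 13.5, 19.9, 36.8, 24.9 and 50.8 CPM in MIT-Empty. The groups overlapped, and the highest pair of libraries were both MIT-Empty, replicates 3 and 5, of which the latter is contained in the former. The log2 fold change was -0.41 (SE 0.30, 95% interval -1.06 to 0.23, adjusted p = 0.522), so the interval reached from 0.481-fold to 1.17-fold. The mean Batf level was thus not higher in the libraries labelled MIT-BATF, and the group names below are those of the labels.

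MIT-Empty replicate 5 held 612 of the 898 Batf counts of replicate 3, or 68.2%, where it held 57.3% of that library's counts overall. With shared counts taken once MIT-Empty replicate 3 went down to 24.7 CPM while replicate 5 stood at 54.6 CPM, and the mean of MIT-BATF was 22.8 ± 5.85 CPM and that of MIT-Empty 28.0 ± 15.7 CPM (SD, 5 libraries each). The log2 fold change was then -0.30 (95% interval -0.96 to 0.37, adjusted p = 0.847), with an upper limit of 1.29-fold. Leaving out MIT-Empty replicate 5 gave -0.10 (upper limit 1.4-fold) with the deposited counts and 0.11 (95% interval -0.44 to 0.65, upper limit 1.57-fold) with shared counts taken once. The sign thus turned without that library only with shared counts taken once, and in each of these fits the interval included 0.

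Per transcript, Batf-201, with 3 exons, took all Batf reads in 9 libraries. In MIT-BATF replicate 3 it took 99.5%, and the other 5.223 estimated reads went to Batf-202, a 532-base retained-intron transcript at chr12:85689292-85689823. The share of Batf-201 differed by -0.1028 percentage points between the groups, a difference that came from that 1 library. With only 1 library apart, all 252 assignments give the same absolute difference. The exact two-sided permutation test therefore cannot decide whether the groups differ.

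Batf3 (chr1:191097847-191108945), which is known as a factor for cross-presenting dendritic cells and can replace BATF in some settings, was the lowest of the 10 per transcript length. Its counts were 8, 25, 50, 6 and 36 in MIT-BATF replicates 1 to 5 and 0, 30, 10, 6 and 3 in MIT-Empty replicates 1 to 5. MIT-Empty replicate 1 had none, and the groups overlapped. The log2 fold change of 0.76 had an SE of 0.66 and an interval from 0.64-fold to 4.47-fold (adjusted p = 0.605; with shared counts taken once 0.50, adjusted p = 0.903), so a difference in Batf3 was not detectable at this depth. Without 1 library the Batf3 value went from 0.45 (without MIT-BATF replicate 5) to 1.49 (without MIT-Empty replicate 2), and from 0.20 to 0.64 with shared counts taken once. Of the dendritic cell markers Itgax and Xcr1 were higher in MIT-BATF (2 of 4 tested), their list's summed level was 19.1 to 29.1 CPM against 12.6 to 20.8 CPM, and Cd209a was at 0 in every library. Xcr1 alone was called when shared counts were taken once (1 of 4). Zbtb46, the most abundant gene of that list, had a log2 fold change of -0.70 with the deposited counts (adjusted p = 0.239 by edgeR). The part of such cells in the Batf3 counts was not tested.

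Irf4 (chr13:30749226-30766976), the IRF that BATF-JUN pairs recruit in activated T cells and whose level follows T cell receptor strength, was at 11.5, 11.8, 20.8, 6.26 and 14.8 CPM in MIT-BATF replicates 1 to 5. In MIT-Empty it was at 9.43, 11.8, 14.4, 20.5 and 7.63 CPM. The ranges nearly coincided, and each group held a library above 20 CPM. The log2 fold change was 0.05 (95% interval -0.59 to 0.70, adjusted p = 0.955), or 0.16 (adjusted p = 0.945) with shared counts taken once. Salmon gave most Irf4 reads to Irf4-202 in every library (98.0% at the median), but in MIT-BATF replicate 3 its share was 55.6%. The remainder there lay mainly on Irf4-201, which is longer by a few bases (4764 against 4761), so the summed count does not depend on that division.

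Irf8 (chr8:120736358-120756694), an IRF of myeloid and B cells that is also induced in effector CD8+ T cells, was at 40.8, 38.8, 41.5, 35.1 and 32.6 CPM in MIT-BATF. The MIT-Empty libraries had 65.1, 48.2, 45.1, 35.7 and 32.7 CPM. Replicates 1, 2 and 3 of MIT-Empty lay above every MIT-BATF library, and replicates 4 and 5 lay within their range. The log2 fold change was -0.26 (SE 0.18, adjusted p = 0.481; with shared counts taken once -0.31, adjusted p = 0.70). Macrophage markers, whose cells also use Irf8, had their highest summed level of 290.0 CPM in MIT-Empty replicate 4, where Irf8 was at 35.7 CPM, and the part of such cells was not tested. Irf8 overlaps Gm20388 on its own strand, so their reads are split by Salmon's estimate.

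**Figure D2:**
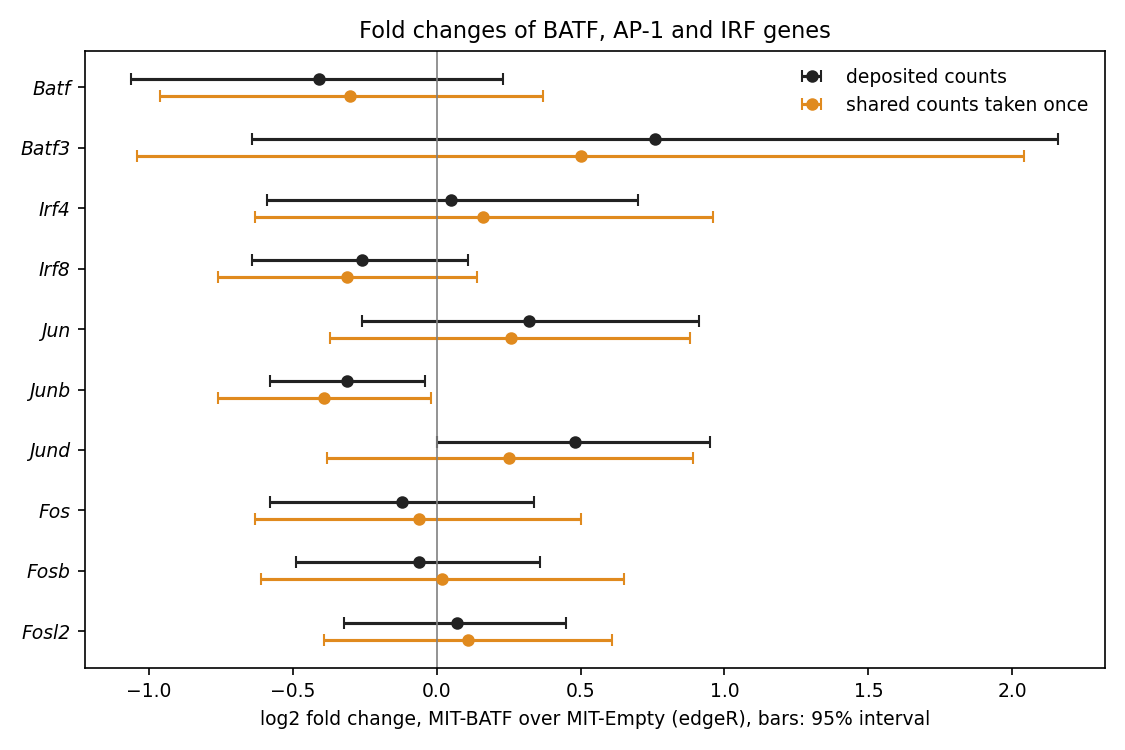
Log2 fold change of MIT-BATF over MIT-Empty (horizontal axis) of the 10 genes from edgeR, with 95% intervals, for the deposited counts in black and for shared counts taken once in orange. The intervals of Junb lie below 0 in both fits without passing the adjustment over all genes, and Batf3 has the widest interval.

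The JUN proteins are the dimer partners of BATF. Junb (chr8:84974484-84978718), which opposes c-Jun at some AP-1 targets, was at 84.0, 95.3, 82.1, 89.3 and 91.6 CPM in MIT-BATF. In MIT-Empty it was at 123, 106, 122, 97.3 and 97.9 CPM. Junb was the only one of the 10 whose groups did not overlap, which 6.45% of all genes also did, 3.17% with MIT-BATF lower. Means were 88.5 ± 5.43 CPM against 109 ± 12.8 CPM (SD, 5 libraries each), the log2 fold change was -0.31 (SE 0.13, 95% interval -0.58 to -0.04) and edgeR gave an unadjusted p of 0.029 and an adjusted p of 0.21. With shared counts taken once the log2 fold change was -0.39 (unadjusted p = 0.039 and adjusted p = 0.422 by edgeR), and the groups overlapped, the highest MIT-BATF library at 108 CPM and the lowest MIT-Empty library at 105 CPM. Non-overlap was found in 3.19% of genes in that fit.

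Jun (chr4:95049034-95052222), which encodes c-Jun, was at 7.55, 24.5, 23, 28.1 and 29.6 CPM in the MIT-BATF libraries and at 20.9, 15.0, 18.3, 15.7 and 20.5 CPM in the MIT-Empty libraries. MIT-BATF replicate 1, the library with 33.2% mitochondrial counts, was the lowest of all 10. The other 4 MIT-BATF libraries were each above all MIT-Empty libraries with the deposited counts. With shared counts taken once MIT-BATF replicate 3 was at 19.2 CPM, below MIT-Empty replicates 1 (22.5 CPM) and 5 (22.1 CPM). Over all libraries the log2 fold change was 0.32 (SE 0.27, adjusted p = 0.598; with shared counts taken once 0.26, adjusted p = 0.867). Without MIT-BATF replicate 1 it was 0.55 (adjusted p = 0.0486), the only call for any of the 10 genes in 29 other settings, and with shared counts taken once it was 0.47 without that library (adjusted p = 0.373). Of the remaining 4 MIT-BATF libraries 2 are contained in the other 2.

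Jund (chr8:70698949-70700616), the JUN family member that is present also in resting cells, was at 15.5, 23.5, 20.8, 23.2 and 18.2 CPM in MIT-BATF. MIT-Empty had 17.1, 15.8, 20.6, 9.86 and 8.96 CPM, so 2 MIT-Empty libraries lay below every MIT-BATF library and the other 3 within their range. The log2 fold change was 0.48 (SE 0.22, 95% interval 0.00 to 0.95; unadjusted p = 0.0518 and adjusted p = 0.281 by edgeR). With shared counts taken once it was 0.25 (adjusted p = 0.873), with MIT-Empty replicate 3 then at 34.0 CPM, the highest of all libraries. Junb, Jun and Jund overlap Prdx2, Junos and Gm11175 on the opposite strand, and since strand is not recorded in such libraries, the origin of reads from the overlapping parts cannot be told apart.

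FOS proteins pair with JUN at the same AP-1 sites as BATF, and c-Fos carries an activation domain that BATF lacks. Fos (chr12:85473890-85477273), an immediate-early gene on the same stretch of chromosome 12 as Batf, was at 30.0, 37.3, 31.4, 24.9 and 26.4 CPM in the MIT-BATF libraries and at 49.7, 26.9, 30.8, 37.5 and 19.1 CPM in the MIT-Empty libraries. MIT-Empty held both the highest and the lowest library. Its log2 fold change was -0.12 (SE 0.22, adjusted p = 0.833; with shared counts taken once -0.06, adjusted p = 0.971).

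Fosl2 (chr5:32135801-32157842), which encodes FRA-2, an AP-1 protein known to be expressed in differentiating T cells, was at 57.8, 59.3, 47.1, 43.7 and 29.6 CPM in the MIT-BATF libraries and at 40.9, 45.5, 55.7, 43.1 and 41.3 CPM in the MIT-Empty libraries. The MIT-BATF values enclosed those of MIT-Empty. Its log2 fold change was 0.07 (95% interval -0.32 to 0.45, adjusted p = 0.902; with shared counts taken once 0.11, adjusted p = 0.938). Fosl2-201 took 90.0% to 98.2% of its reads.

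Fosb (chr7:19302696-19310051, minus strand) was at 16.8, 25.9, 21.9, 14.7 and 15.5 CPM in the MIT-BATF libraries and at 18.6, 16.5, 25.8, 22.6 and 15.8 CPM in the MIT-Empty libraries, and its log2 fold change was -0.06 (95% interval -0.49 to 0.36, adjusted p = 0.914), or 0.02 (adjusted p = 0.993) with shared counts taken once. The ranges of the groups coincided. Of 7 annotated transcripts Fosb-207 took 66.5% to 90.4% of the reads. It lacks 2 coding stretches of Fosb-201, which are shown because they decide which protein the reads stand for: a 108-base exon at chr7:19306559-19306666 that encodes part of the basic region, and a 140-base stretch at chr7:19305007-19305146 whose removal gives the shortened, ΔFosB type of reading frame. Both are written 5′ to 3′ on the minus strand, and the capitals mark the GT and AG with which the 140 bases begin and end when spliced out as an intron.
Fosb 108-base exon: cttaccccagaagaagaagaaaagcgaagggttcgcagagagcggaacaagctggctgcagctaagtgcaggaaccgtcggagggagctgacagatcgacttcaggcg
Fosb 140-base stretch: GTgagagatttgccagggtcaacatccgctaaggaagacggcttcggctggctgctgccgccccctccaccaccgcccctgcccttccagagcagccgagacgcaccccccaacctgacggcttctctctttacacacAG
Transcripts without the 140 bases held 77.6%, 75.1%, 84.0%, 67.9% and 66.5% of Fosb reads in MIT-BATF replicates 1 to 5 and 79.3%, 86.3%, 78.0%, 90.4% and 85.0% in MIT-Empty replicates 1 to 5. The medians were 75.1% and 85.0% and the ranges overlapped, since MIT-BATF replicate 3 lay above 2 of the MIT-Empty libraries. The shares are Salmon's estimates from 37 bp reads and were looked at after the counts were known, so they were not tested.

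Levels can be compared between genes in the authors' TPM, which divide by transcript length. Junb was highest with a median of 67.1 TPM over the 10 libraries (48.6 to 92.2), and its range did not overlap that of the next gene, Batf, with a median of 21.2 TPM (9.47 to 42.2). Jund (14.7), Fos (9.86), Irf8 (9.51), Jun (4.95), Fosl2 (4.22), Fosb (3.31), Irf4 (2.26) and Batf3 (1.18) followed by their median TPM, and each of these ranges overlapped that of the gene before it. Within libraries Batf was above Jund in 7 of 10, Fos above Irf8 in 6 of 10 and Jun above Fosl2 in 5 of 10, so these neighbours did not keep an order. Irf8 was above Jun and Fosb above Irf4 in 10 of 10. Batf RNA was thus the second highest of the 10 by median per length also in cells with the empty vector, where it was at 11.7 to 42.2 TPM, against 9.47 to 27.0 TPM in MIT-BATF.

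**Figure D3:**
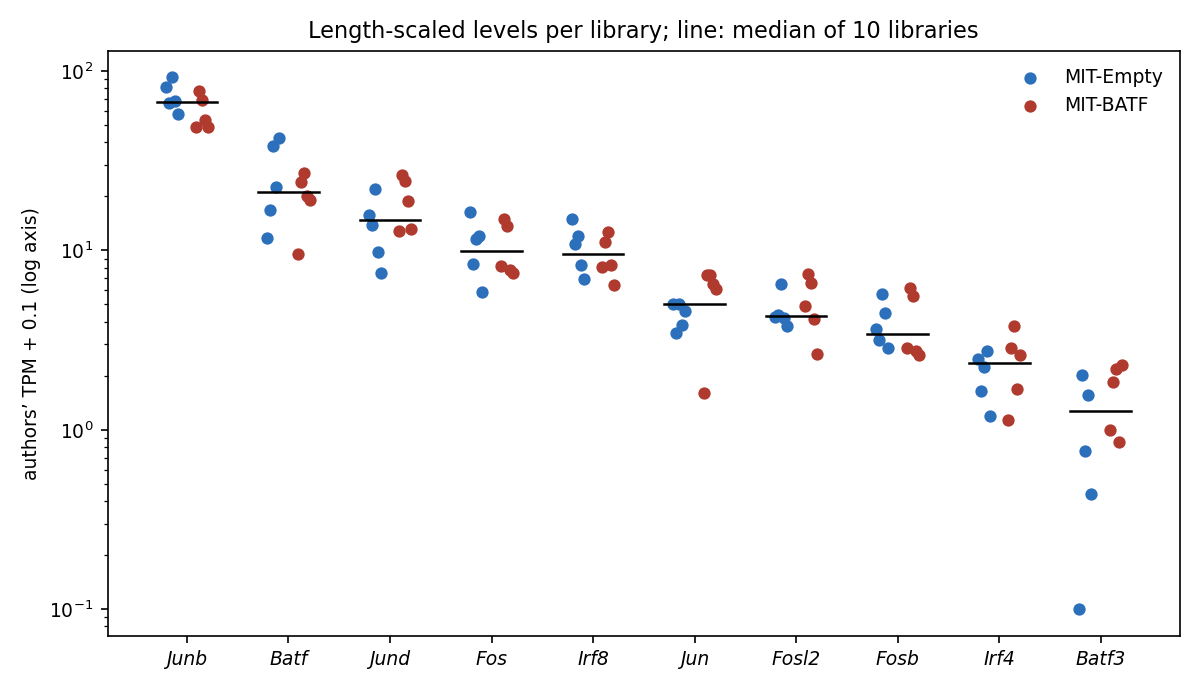
The authors' TPM plus 0.1 on a log axis for the 10 genes in order of their median over 10 libraries (black line), with MIT-Empty points in blue and MIT-BATF points in red. Junb stands above the rest at 48.6 to 92.2 TPM, and the points of both groups intermix for every gene.

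Other genes of the pathway were read from the same fit in 8 lists, of which 5 held at least 1 gene that passed the test. Of 9 tested further AP-1, ATF and CREB factors 0 were called, of 16 MAP kinase and NFAT genes that feed AP-1 0, and of 11 heat shock genes 0, against 4.58% of all genes; with the unadjusted p under 0.05 these counts were 0, 3 and 0 by edgeR. DESeq2 called Fosl1 (FRA-1) of the first list, lower in MIT-BATF and too low for edgeR's filter, Mapk14 of the second, higher, and 0 heat shock genes; with shared counts taken once it called 0 in all 3 lists. The 3 unadjusted ones were Mapk14 (p38α, log2 fold change 0.47, adjusted p = 0.0755, groups not overlapping at 27.0 to 35.9 and 18.8 to 24.2 CPM), Nfatc2 (0.90, adjusted p = 0.14, and 0.0387 without MIT-BATF replicate 5) and Map2k1 (-0.36, adjusted p = 0.27). In the first list Atf4, a regulator of amino acid stress responses, had a log2 fold change of 0.30, Atf6 0.29 and Atf7 -0.23, with adjusted p of 0.418, 0.53 and 0.674. Among the heat shock genes Dnajb1 had 0.28, Hspa1b -0.32 and Hsph1 -0.19, with adjusted p of 0.375, 0.616 and 0.629.

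Among the MAF, BACH and CNC factors, bZIP proteins related to AP-1, 2 of 8 rose and 0 fell, and the list's median log2 fold change was 0.68 beside 0.01 over all genes. Of all genes 4.58% were called. At an unadjusted p under 0.05 by edgeR the list held 4 of 8, against 18.1% of all genes. With shared counts taken once it held 3 of 8, against 10.6%. Maf, which encodes c-MAF, was at 26.7, 19.1, 21.7, 16.4 and 19.4 CPM in the MIT-BATF libraries and at 6.0, 5.58, 3.64, 10.0 and 3.32 CPM in the MIT-Empty libraries. Every MIT-BATF library lay above every MIT-Empty library, and the log2 fold change was 1.90 (SE 0.27, adjusted p = 0.00123). With shared counts taken once it was 2.02 (adjusted p = 0.00343), and it passed the test without any 1 of the 10 libraries. Mafk, a small MAF protein gene without an activation domain, was at 4.69 to 10.4 CPM in the MIT-BATF libraries and at 2.33 to 3.73 CPM in the MIT-Empty libraries (log2 fold change 1.07, adjusted p = 0.0381; with shared counts taken once 0.97, adjusted p = 0.237). Bach2, a repressor that competes at AP-1 sites in CD8+ T cells, was at 31.7 to 88.1 CPM against 29.9 to 47.6 CPM (0.80, adjusted p = 0.0964), and leaving out MIT-BATF replicate 5 brought its adjusted p to 0.0213; DESeq2 called it with the deposited counts and not with shared counts taken once.

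Of 10 other interferon regulatory factors 1 rose and 0 fell, against 4.58% of all genes called, and the median of their log2 fold changes was 0.38. At an unadjusted p under 0.05 by edgeR 4 of the 10 were counted, against 18.1% of all genes. With shared counts taken once edgeR called 0 of 9, against 1.26%, and the median was 0.29. In that fit 3 of the 9 had an unadjusted p under 0.05, against 10.6%. The 1 that rose with the deposited counts was Irf7, which amplifies type I interferon responses, at 14.2, 8.72, 11.2, 8.03 and 11.1 CPM against 7.10, 6.59, 5.53, 5.66 and 4.48 CPM (log2 fold change 0.86, adjusted p = 0.0359). The groups did not overlap, but with shared counts taken once the adjusted p was 0.166. Irf1 had 0.63 (adjusted p = 0.105) and Irf2 had 0.41 (adjusted p = 0.13).

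Of 13 tested genes of IL-21, IL-6 and IL-12 signaling, cytokines that act with BATF in T cells, 1 rose, against 4.58% of all genes called. At an unadjusted p under 0.05 by edgeR 1 of the 13 was counted, against 18.1% of all genes. With shared counts taken once edgeR called 1 of 13, against 1.26%, and counted 1 at an unadjusted p under 0.05, against 10.6%. Il12rb2, the inducible chain of the IL-12 receptor, was at 458, 220, 176, 217 and 218 CPM in the MIT-BATF libraries and at 109, 91.2, 101, 66.6 and 98.4 CPM in the MIT-Empty libraries. The lowest MIT-BATF library was above the highest MIT-Empty library, the log2 fold change was 1.46 (SE 0.24, adjusted p = 0.00303), and with shared counts taken once it was 1.38 (adjusted p = 0.0198). Its partner chain Il12rb1 was at 0.263 to 9.98 CPM and 1.58 to 3.32 CPM (1.10, adjusted p = 0.309); leaving out MIT-BATF replicate 1, the lowest, brought its adjusted p to 0.0283, and with shared counts taken once it was 0.67 (adjusted p = 0.817). For Jak2, the kinase of that receptor, it was 0.26 (adjusted p = 0.501).

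Of 8 tested genes linked to BATF and IRF4 in T cells 2 rose and 1 fell, and with shared counts taken once 0 of 6 were called by edgeR. The shares of all genes called were 4.58% and 1.26%. At an unadjusted p under 0.05 by edgeR 4 of 8 were counted, against 18.1% of all genes. With shared counts taken once 2 of 6 were counted, against 10.6%. DESeq2 called 2 higher and 3 lower, the chemokine receptor gene Ccr6 and the cytokine gene Il21 being the added ones, and with shared counts taken once it called Ctla4 (higher) and Ccr6 (lower). The inhibitory receptor gene Ctla4 was at 362 to 411 CPM in the MIT-BATF libraries and at 192 to 308 CPM in the MIT-Empty libraries (log2 fold change 0.72, adjusted p = 0.015; with shared counts taken once 0.77, adjusted p = 0.0687). Hif1a, which encodes the hypoxia-induced factor HIF-1α, was at 480 to 1044.7 CPM against 330 to 467 CPM (0.78, adjusted p = 0.0412; with shared counts taken once 0.73, adjusted p = 0.218), its highest library being MIT-BATF replicate 1. The cytokine gene Il10, made by T cells and macrophages alike, had 0, 12, 6, 1 and 6 counts in MIT-BATF and 15, 42, 19, 42 and 10 counts in MIT-Empty. Its log2 fold change was -3.35 (adjusted p = 0.0208). MIT-Empty replicates 2 and 4 have the same Il10 count, so that replicate 2 has 0 with shared counts taken once, the groups then overlap, and Il10 did not pass the filter on low counts in that fit; DESeq2 gave -3.08 there (adjusted p = 0.415). MIT-Empty replicate 4 also had the highest macrophage and melanoma marker sums, and the part of these cells in Il10 was not tested.

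Of 18 immediate-early genes other than the FOS and JUN members 3 rose, 0 fell and the median log2 fold change was 0.27. Of all genes 4.58% were called. At an unadjusted p under 0.05 by edgeR 9 of the 18 were counted, against 18.1% of all genes. With shared counts taken once 7 were counted, against 10.6%, and edgeR called 1 of the 18, against 1.26%. DESeq2 called 4 with the deposited counts, adding Btg2, and 3 with shared counts taken once. The MAP kinase phosphatase gene Dusp2 was at 197, 249, 249, 238 and 235 CPM in the MIT-BATF libraries and at 120, 123, 143, 126 and 125 CPM in the MIT-Empty libraries, without overlap (log2 fold change 0.87, SE 0.13, adjusted p = 0.00123; with shared counts taken once 0.86, adjusted p = 0.0222). Myc was at 38.0 to 52.3 CPM against 24.5 to 34.9 CPM (0.67, adjusted p = 0.0173; with shared counts taken once 0.74, adjusted p = 0.0743). Egr1, a zinc finger factor of the early T cell receptor response, was at 7.29 to 18.8 CPM against 4.98 to 7.47 CPM (1.02, adjusted p = 0.0272; with shared counts taken once 1.08, adjusted p = 0.126). Fos, Fosb, Jun and Junb, induced by the same signals, had log2 fold changes of -0.12, -0.06, 0.32 and -0.31 in the same fit and did not pass. Whether they differ from the 3 that rose was not tested. The weaker calls did not hold in every fit that left out 1 library. Whether the single library or the smaller group decided this was not tested. Ctla4 was lost without MIT-Empty replicate 2, Myc without MIT-Empty replicate 2 or MIT-BATF replicate 2, and Il10 without MIT-BATF replicate 3, MIT-BATF replicate 4 or MIT-Empty replicate 4. Mafk, Irf7, Hif1a and Egr1 passed in only 3, 3, 4 and 3 of the 10 fits that left out 1 library and were each lost without MIT-Empty replicate 2, 3, 4 or 5. Mafk was also lost without MIT-Empty replicate 1, MIT-BATF replicate 2 or 4, Irf7 without MIT-BATF replicate 2, 3 or 5, Hif1a without MIT-BATF replicate 2 or 4, and Egr1 without MIT-BATF replicate 2, 3 or 4. Maf, Il12rb2 and Dusp2 passed in all 10 such fits, but without the 4 libraries that contain others their adjusted p were 0.13, 0.081 and 0.191, with 3 libraries left per group. Without the 4 libraries contained in others those of Il12rb2 and Dusp2 were 0.0604 and 0.0546. Maf was called in all 10 fits without 1 library with shared counts taken once, where Il12rb2 was not called without MIT-Empty replicate 1, 2 or 4, and Dusp2 was not called without MIT-BATF replicate 2 or 4 or MIT-Empty replicate 1, 2, 4 or 5 (adjusted p up to 0.0854).

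**Figure D4:**
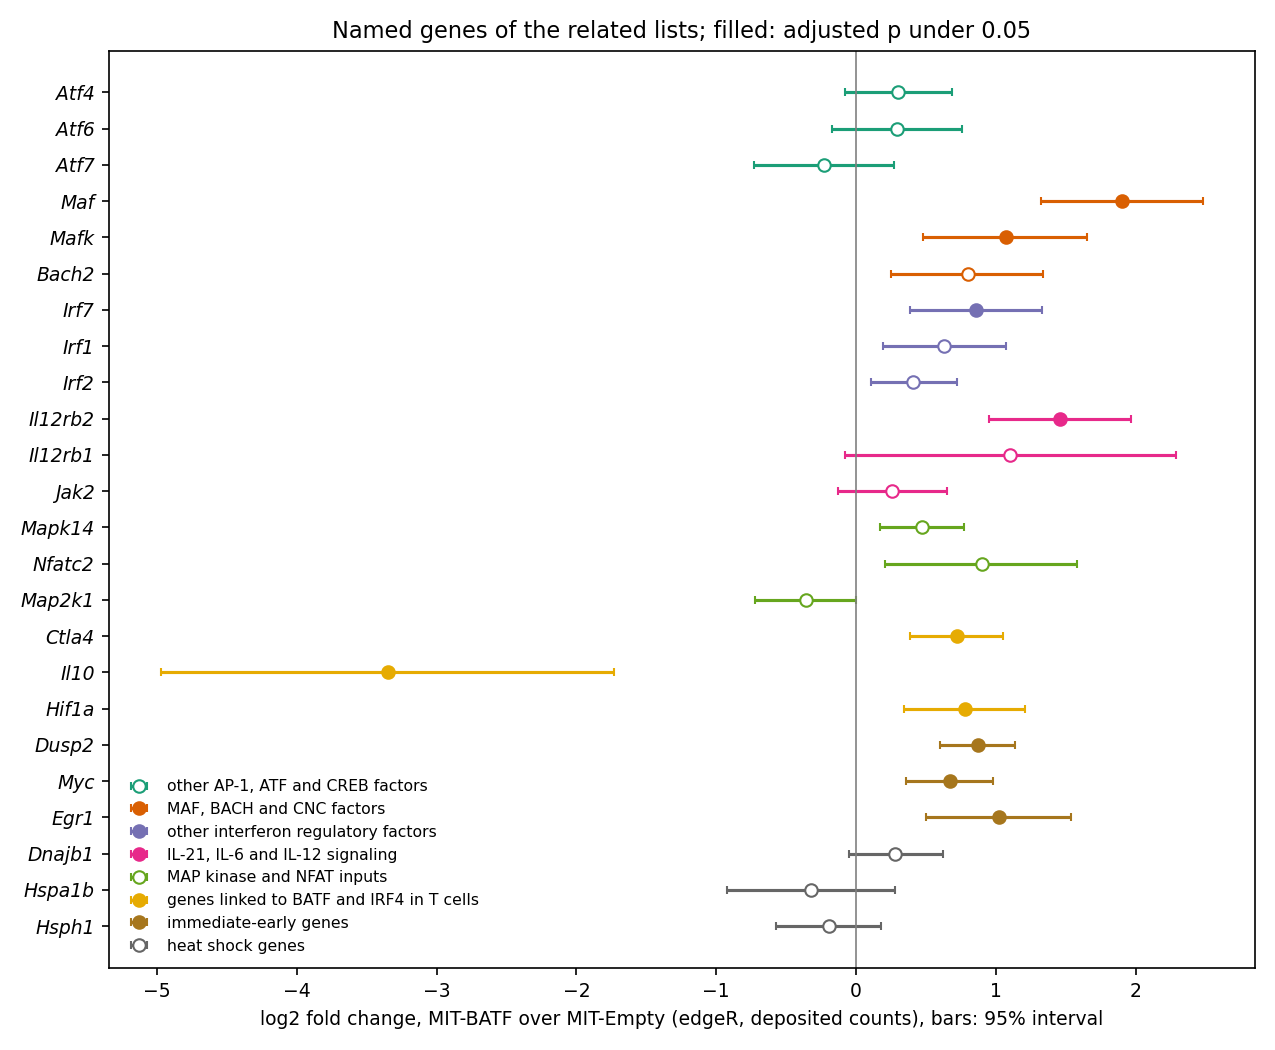
Log2 fold change of MIT-BATF over MIT-Empty with 95% intervals (horizontal axis) for the named genes of the 8 related lists, colored by list, from edgeR on the deposited counts; filled points have an adjusted p under 0.05. Maf, Mafk, Irf7, Il12rb2, Ctla4, Hif1a, Dusp2, Myc and Egr1 are filled to the right of 0 and Il10 to the left; of these Maf, Il12rb2 and Dusp2 also passed with shared counts taken once.

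Promoters of the 10 genes, taken from RefSeq for GRCm38.p6 as 250 bases before to 50 bases after each start (11 promoters, 10 genes matched), were searched on both strands. The AP-1 element TGANTCA was in 0 of the 10 genes, against 7.81% of 32851 promoters. The composite AP-1 and IRF elements, in which TTTC stands 4 bases before it or GAAA directly before it, were also in 0, against 0.119% and 0.125%. Both hold the AP-1 element, so their matches are among those of the latter. The STAT element TTCNNNGAA was in the promoters of Batf3 and Irf8, against 8.3% of all. These are matches of letters in a short window and say nothing on binding.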

How the data were processed

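Libraries were made by a modified SMART-Seq2 protocol and sequenced in paired 37 bp mode. The authors used the nf-core/rnaseq pipeline 1.4.2 with mm10 and quantified transcripts with Salmon (no version given in the sources used here). Values deposited by the authors are Salmon's estimated counts and TPM for 112092 transcripts, of which 305 (0.0617% to 0.089% of counts) had no GENCODE match and were left out.

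Estimated counts were summed per gene, rounded and tested with edgeR 4.0.16 in R 4.3.3 (quasi-likelihood test, TMM, filterByExpr, condition as the only term, Benjamini-Hochberg over all genes tested, threshold 0.05), with DESeq2 1.42.0 as an alternative. The test was also run on simulated counts with libraries drawn independently. These hold no shared reads, so that run cannot show how the test behaves with nested libraries. In the fit with shared counts taken once, values under 0 were set to 0 (at most 0.215% of a contained library's counts). Nothing states that replicate numbers pair the groups, and the names of the deposited tables carry a further number of unknown meaning. Members and lists were chosen with earlier results of these data known. Named genes were all members and, of each related list, every gene past the threshold and up to 3 with the smallest p. The most abundant gene of each marker list and the 3 genes closest to Batf were also named. Fosl1, S100a8, Cd79b, Dcn, Itgax, Xcr1, Cd209a, Ccr6, Il21 and Btg2 were named after their values were seen. Reads of near-identical or overlapping genes are divided by estimate. Python 3.11.15, pandas 2.3.3, matplotlib 3.10.9 and scipy 1.17.1 were used for tables, figures and permutation tests. Sequences came from GENCODE transcripts of GRCm38 and RefSeq promoters of GRCm38.p6.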

Additional observations from a re-analysis of the deposited data

Results flagged for a closer look

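Among 40 groups of 5 values examined (each member's CPM, the mitochondrial share and the marker sums, in each group), 2 held a value set apart from its group by more than Dixon's 95% limit, and chance gives about 1 in 20 such groups. Both were in MIT-BATF replicate 1: Batf at 12.4 CPM was the lowest of its group, its gap to the next library being 0.724 of the group's range (limit 0.71), and the share of mitochondrial counts at 33.2% was the highest, with 0.831 of the range.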

How the results depend on the processing

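In 29 other settings 0 of the 10 members passed the threshold, except Jun without MIT-BATF replicate 1, so members called ranged from 0 to 1. Of 286 member values under other settings 259 kept their direction and side of the threshold, 26 changed sign and 1 passed. Outside the fits that leave out 1 library, those that changed sign were Irf4 (-0.18 without the containing libraries) and Fosb (0.02 with shared counts taken once, 0.12 without the contained libraries, and with shared counts taken once 0.03 by DESeq2 and 0.01 in the replicate block); of other named genes Atf7 did (0.04 without the contained libraries), as did Eomes (0.00 with shared counts taken once, 0.01 with no filter and 0.01 by DESeq2 with shared counts taken once). Leaving out 1 library moved the log2 fold change of Batf from -0.58 to -0.10 (from -0.46 to 0.11 with shared counts taken once) and the Batf-201 share difference from -0.1285 to 0.0 percentage points. Over the same fits Batf3 ranged from 0.45 to 1.49 (with shared counts taken once 0.20 to 0.64), Irf4 ranged from -0.18 to 0.28 (with shared counts taken once -0.12 to 0.40), Fos from -0.24 to 0.09 (-0.22 to 0.11), Fosb from -0.20 to 0.05 (-0.20 to 0.29), Fosl2 from -0.03 to 0.20 (-0.02 to 0.28), Atf7 from -0.42 to -0.09 (-0.27 to 0.02), Cd3d from -0.21 to 0.02 (-0.35 to -0.05), Cd40lg from 0.03 to 1.62 (-0.97 to 1.16), Eomes from -0.23 to 0.05 (-0.25 to 0.12), Hspa1b from -0.48 to -0.15 (-0.42 to 0.03) and Hsph1 from -0.31 to -0.09 (-0.27 to 0.02). The cause of these sign changes was not tested. The 540 genes called became 140 with shared counts taken once, 1173 with DESeq2, 903 with no filter, 96 without the contained libraries, 15 without the containing libraries, 287 to 772 without 1 library (lowest without MIT-Empty replicate 2) and, with shared counts taken once, 388 with DESeq2, 173 in the replicate block and 69 to 148 without 1 library. Deviations of samples with the same number had correlations of 0.129, 0.00, 0.222, -0.046 and 0.022 for numbers 1 to 5. Only numbers 1 and 3 were closest to their own. These values do not decide whether the numbers pair the groups, so the block was not read as a pairing. With the replicate block 474 genes were called and Batf was -0.31. Without the containing libraries Batf3 did not pass the filter. The median of all genes lay at -0.10 with DESeq2, against which its member values should be read. Il10 did not pass edgeR's filter with shared counts taken once over all libraries; without 1 library it was then -4.05 to -1.75 and not called. Fits combining 2 settings and those leaving out libraries with shared counts taken once were added after seeing the data. Low counts limit Batf3 most.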

Other observations

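Among 2733 genes averaging at least 5 on the log2 CPM scale, those whose log2 CPM followed Batf most closely over the 10 libraries with shared counts taken once were Plp2 (Pearson r 0.94), Ly6e (0.92) and Rer1 (0.92). Without MIT-Empty replicate 5 and MIT-BATF replicate 1, the libraries farthest from the median Batf level, r was 0.83, 0.68 and 0.85. The points share library, depth and, in the nested pairs, possibly reads, and the genes were picked for these values, so r is a description. Plp2 was at 212 to 347 CPM in the MIT-BATF libraries and at 214 to 431 CPM in the MIT-Empty libraries, Ly6e at 475 to 988 CPM and 678 to 1444.6 CPM, and Rer1 at 90.6 to 124 CPM and 79.4 to 164 CPM.

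The most abundant gene of each marker list gave the following levels beside those in the report. Cd3d, of the CD8 T cell list, was at 1005.1 ± 236 CPM under MIT-BATF against 1091.3 ± 200 CPM (SD, 5 libraries each). The melanoma gene Tyrp1 was at 1.08 to 4.48 CPM against 9.46 to 753 CPM and the macrophage gene Lyz2 at 8.95 to 36.2 CPM against 20.2 to 134 CPM, and both fell in MIT-BATF (log2 fold changes -6.11 and -1.66, adjusted p = 0.00497 and 0.0342 by edgeR; with shared counts taken once 0.0288 and 0.0869). Without MIT-Empty replicate 4 the Tyrp1 value was -4.64, or -2.47 with shared counts taken once. DESeq2 with shared counts taken once called Lyz2 and not Tyrp1. Ighm, of the B cell list, was at 32.2 to 53.4 CPM against 70.1 to 159 CPM and fell (-1.32, adjusted p = 0.00315 by edgeR), and Cd79b of that list rose; with shared counts taken once edgeR called Ighm (adjusted p = 0.0131) and not Cd79b (adjusted p = 0.128), whereas DESeq2 called both. Zbtb46, Eomes, Cxcr2, Pecam1 and Cd40lg had mean levels of 1.2 to 12.6 CPM in both groups and did not pass the test, and 0 genes of the CD4 T cell, NK cell and neutrophil lists were called, of 2, 3 and 1 tested (0, 2 and 0 at an unadjusted p under 0.05 by edgeR); DESeq2 called S100a8 of the neutrophil list. In the fibroblast and endothelial list Dcn fell, 1 of 2 tested by edgeR, also with shared counts taken once. Of 6 genes of that list DESeq2 called 4 lower with the deposited counts, Dcn among them. With shared counts taken once it called only Dcn.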
